A study of Rattus norvegicus with 192 samples.

Results

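The genes described here control how blood clots form and dissolve. They are Plat (tissue plasminogen activator), Plau (urokinase plasminogen activator), Plaur (the urokinase receptor), Thbd (thrombomodulin), F3 (tissue factor) and Vwf (von Willebrand factor). They were chosen by name, with earlier results of these data known, through the probe sets whose platform annotation names only one of 7 listed genes. A probe set is the group of short probes on the array that reads one transcript. For 6 of the 7 genes this gave 9 probe sets of the 31042 tested, with 3 for Thbd, 2 for Plau and 1 for each of the others. Thbs1, the other listed gene, is not analysed here. Where 1 value per gene is given, Plau is read by 1387675_PM_at and Thbd by 1375951_PM_at, their brightest probe sets.

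The plasminogen activators cut plasminogen into plasmin, the enzyme that dissolves fibrin. Urokinase does much of this while bound to its receptor on the cell surface. Tissue factor starts clotting when it meets factor VII of the blood, and thrombomodulin on the endothelium turns thrombin from a clotting enzyme into an activator of protein C, which slows clotting. Von Willebrand factor, made by endothelium and megakaryocytes, tethers platelets to the vessel wall and carries factor VIII. The capillary bed of the lung is rich in thrombomodulin, lung tissue is rich in tissue factor, and the kidney tubules are a well-known source of urokinase.

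Male Sprague-Dawley rats were exposed to phosphine (PH3), a grain fumigant that blocks mitochondrial respiration, in a whole-body chamber at 660 ppm for 25 min, a product of 16500 ppm×min that the labels set at 0.71 of the median lethal product (LCt50). Control rats breathed air (Air). Lung, heart, kidney, blood, olfactory bulb and brain stem were taken 1, 3, 6 or 24 h later and read on 192 Affymetrix 3′ expression arrays, 1 array per tissue of a rat. The 48 groups of tissue, exposure and time held 4 rats each, except 3 in blood of Air rats at 24 h and 5 in olfactory bulb of Air rats at 1 h. The labels name no genetic change, and the tissues were not sorted into cell types, so fewer cells of a type and less RNA per cell cannot be told apart.

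Plaur and Plau are the members with a promoter in the RefSeq table used here (GRCr8), each given as 300 bases that end shortly after the start of the gene. Both are printed because no other member has a promoter in that table. Each was searched on both strands for the AP-1 motif TGANTCA, the cyclic AMP response element TGACGTCA, the GC box GGGCGG, the glucocorticoid half-site TGTTCT, the E-box CACGTG and the TATA box TATAAA, and capitals mark the matches.
Plaur promoter, chr1:89181113-89181412, plus strand: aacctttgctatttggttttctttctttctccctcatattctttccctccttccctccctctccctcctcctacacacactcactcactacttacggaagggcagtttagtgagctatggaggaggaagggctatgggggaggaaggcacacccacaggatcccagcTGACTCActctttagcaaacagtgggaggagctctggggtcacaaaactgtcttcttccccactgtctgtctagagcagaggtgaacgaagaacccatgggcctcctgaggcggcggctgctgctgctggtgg
Plau promoter, chr15:3511938-3512237, minus strand: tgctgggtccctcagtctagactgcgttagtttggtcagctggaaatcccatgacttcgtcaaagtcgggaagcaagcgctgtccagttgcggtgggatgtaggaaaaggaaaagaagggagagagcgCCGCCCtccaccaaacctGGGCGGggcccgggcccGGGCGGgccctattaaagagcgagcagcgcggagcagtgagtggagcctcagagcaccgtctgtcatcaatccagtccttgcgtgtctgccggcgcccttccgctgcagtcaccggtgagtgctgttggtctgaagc
The Plaur window held 1 match, an AP-1 motif from base -83 to base -77 counted from the start, and AP-1 motifs were found in 7.33% of 33469 such windows. The Plau window held 3 GC boxes, from -122 to -117 (on the opposite strand), -104 to -99 and -87 to -82, and GC boxes were found in 33.1% of windows. The other motifs, present in 1.83% (cyclic AMP element), 20.7% (glucocorticoid half-site), 6.42% (E-box) and 14.2% (TATA box) of windows, were in neither. A match is a stretch of letters and was not tested as a binding site.

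The arrays carried the markers of their labelled tissues. The mean log2 level of lung markers was 12.59 to 12.82 in lung arrays and at most 6.19 elsewhere, and kidney markers ran from 9.55 to 10.02 in kidney. Heart muscle markers were at 12.15 to 12.67 in heart, but lung arrays also held them, at 6.53 to 10.83. Nervous tissue markers were at 10.76 to 11.26 in brain stem and 10.33 to 11.09 in olfactory bulb, while the 3 measured brain stem markers did not set brain stem (4.99 to 5.71) apart from blood (4.52 to 5.78). By their correlation with the other arrays of their tissue, 12 arrays stood apart, 4 of them from heart and 1 from lung (the Air Rat355 at 3 h). The array medians lay between 4.98 and 5.42.

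In Air rats the genes had distinct tissue patterns. Levels are RMA log2 intensities of 1 probe set, averaged over the 15 to 17 Air arrays of a tissue, and they were compared between tissues only within a probe set. All 9 probe sets differed between tissues by limma's F test, as did 99.7% of all probe sets. Whether the arrays of different tissues were normalized together is not given in the sources used here.

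Urokinase was brightest in kidney. Plau was at 11.83 ± 0.112 (SD, n = 16) in kidney, ranging from 11.63 to 12.10, which put it at the 99.4th percentile of all probe sets there. Lung followed at 8.21 ± 0.187 (n = 16), ranging from 8.01 to 8.56, and heart at 5.27 ± 0.433 (n = 16). Kidney, lung and heart were each above the next tissue at an adjusted p under 0.05. The values of kidney and lung did not overlap, nor did those of lung and heart, while those of heart and blood overlapped. Blood at 4.76 ± 0.517 (n = 15) and olfactory bulb at 4.64 ± 0.324 (n = 17) did not differ (adjusted p = 0.332), and brain stem was lowest at 4.23 ± 0.254 (n = 16). The second Plau probe set, 1398287_PM_at, also had its highest levels in kidney (11.24 ± 0.14) and lung (6.92 ± 0.534).

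Its receptor had a different order. Plaur, read by a probe set whose s_at suffix marks probes that can match several transcripts, was dim throughout, with the highest mean in lung at 5.45 ± 0.55 (SD, n = 16), ranging from 4.50 to 6.40. Olfactory bulb was next at 5.0 ± 0.365 (n = 17), then blood at 4.27 ± 0.468 (n = 15) and heart at 4.24 ± 0.23 (n = 16), which did not differ (adjusted p = 0.836). Kidney, where urokinase was brightest, had Plaur at 3.80 ± 0.278 (n = 16), and brain stem had it at 3.19 ± 0.245 (n = 16).

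Tissue plasminogen activator was nearly even over the solid tissues. Plat was at 9.17 ± 0.162 (SD, n = 16) in lung, 9.08 ± 0.111 (n = 17) in olfactory bulb, 8.95 ± 0.167 (n = 16) in kidney, 8.83 ± 0.263 (n = 16) in heart and 8.71 ± 0.115 (n = 16) in brain stem. No neighbours in this order differed beyond the spread (adjusted p from 0.195 to 0.426). Only neighbours are compared here, so this does not show that lung and brain stem, at the ends of the order, were alike. Blood stood far below, at 4.28 ± 0.56 (n = 15), with no rat within the range of any other tissue.

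Thrombomodulin, tissue factor and von Willebrand factor were all highest in lung. Thbd was at 11.36 ± 0.174 (SD, n = 16) there, the 99th percentile of probe sets, then at 8.80 ± 0.235 in heart, 7.30 ± 0.166 in kidney, 5.86 ± 0.324 in olfactory bulb, 5.51 ± 0.474 in brain stem and 3.51 ± 0.386 in blood, each step passing the test. F3 was at 9.36 ± 0.308 in lung and 8.70 ± 0.312 in kidney. Heart (7.64 ± 0.442), brain stem (7.51 ± 0.116) and olfactory bulb (7.47 ± 0.202) did not differ as neighbours, and blood was lowest at 4.74 ± 0.57. Vwf was at 10.17 ± 0.324 in lung, and blood (8.03 ± 0.73) and heart (7.94 ± 0.311) came next without a difference between them (adjusted p = 0.633). Brain stem (6.63 ± 0.404) and kidney (6.61 ± 0.54) also did not differ, and olfactory bulb was lowest (5.95 ± 0.294). The other Thbd probe sets also had lung and then heart highest, but ranked blood above brain stem and olfactory bulb, at 4.44 on 1368901_PM_at and 4.26 on 1368900_PM_at. On 1368900_PM_at blood was also above kidney (3.73). Platelet markers were at 9.17 to 9.95 in blood against at most 6.24 elsewhere. The part of platelets in the Vwf level of blood, which did not differ from that of heart, was not tested.

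**Figure D1:**
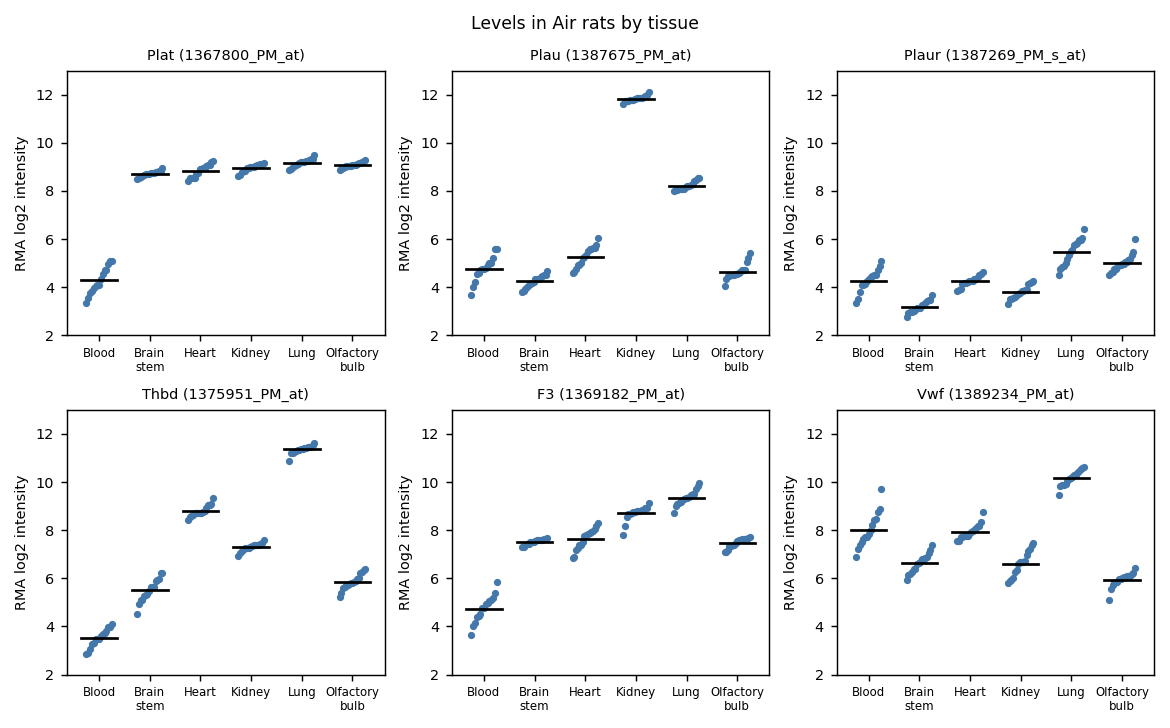
Levels of the 6 genes in Air rats. Each panel is one gene, the vertical axis is the RMA log2 intensity, points are single arrays (15 to 17 a tissue) and bars are tissue means. Plau peaks in kidney (11.83), Thbd in lung (11.36), and Plat is nearly even outside blood.

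The next comparison asked how phosphine moved these genes in each tissue and at each time. Over the 9 probe sets, 6 tissues and 4 times there were 216 contrasts of PH3 with Air. In limma's fits, with p-values adjusted over all 31042 probe sets, 9 contrasts passed an adjusted p under 0.05 (called below), all in lung, with 5 at 1 h and 4 at 3 h. In lung 4.24% of all probe sets were called at 1 h, 9.89% at 3 h, and 0% at 6 h and at 24 h. In the other tissues none of the 180 contrasts was called, and 14 had an unadjusted p under 0.05. At that looser threshold, from 904 (brain stem at 6 h) to 3801 (kidney at 1 h) of all 31042 probe sets passed in a contrast outside lung. The share called at adjusted p under 0.05 was small there: 0% at every time in blood, 0.915%, 0.00644%, 0% and 0.00644% at 1, 3, 6 and 24 h in heart, and 2.35%, 0.303%, 0.0161% and 0% in kidney. It was 0.306%, 0.0161%, 0% and 0.00322% in brain stem, and 0.00322%, 0%, 0% and 0% in olfactory bulb.

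**Figure D2:**
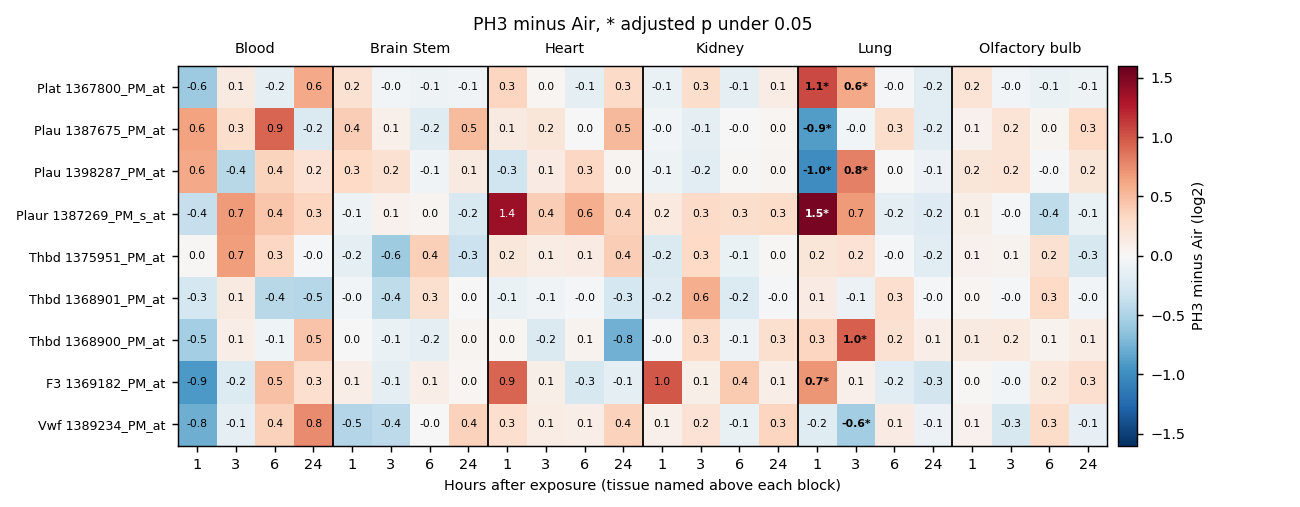
PH3 minus Air for the 9 probe sets (rows) in 6 tissues and at 4 times (columns). The colour and the printed number are the log2 difference, and stars mark an adjusted p under 0.05; all 9 stars lie in lung at 1 and 3 h.

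At 1 h the lung gave the main result. Plat, Plaur and F3 rose, and both Plau probe sets fell, so 4 of the 6 genes were called. Thbd and Vwf were not. The effects are log2 differences between group means ± SE, and ran from -0.999 to 1.52 over the 9 probe sets. Their median was 0.20, against -0.01 over all probe sets.

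Plat, which frees plasmin on fibrin, had the smallest p. In the Air rats Rat345, Rat352, Rat353 and Rat354 its log2 level was 9.33, 9.26, 9.24 and 9.19, and in the PH3 rats Rat343, Rat350, Rat351 and Rat357 it was 10.51, 10.44, 9.88 and 10.42. All PH3 rats lay above all Air rats, and Rat351 lay nearest to the controls. The rise was 1.06 ± 0.139, a 2.08-fold change (adjusted p = 2.0e-05).

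Plaur, which gathers urokinase on the cell surface, rose most in size. It was at 5.76, 4.99, 5.19 and 4.83 in the Air rats in the same order, and at 7.02, 7.02, 6.14 and 6.66 in the PH3 rats. The groups did not overlap, and Rat351 was again lowest of the exposed. The rise was 1.52 ± 0.234, or 2.86-fold (adjusted p = 1.4e-04).

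Its ligand moved the other way. Plau on probe set 1387675_PM_at was tight in the Air rats at 8.06, 8.02, 8.02 and 8.08, and was at 7.0, 7.22, 7.79 and 6.59 in the PH3 rats Rat343, Rat350, Rat351 and Rat357. All exposed rats were below all controls, and Rat351 was closest to them. The fall was -0.90 ± 0.175, which leaves the Air level 1.86-fold above the PH3 level (adjusted p = 0.00184). On 1398287_PM_at the Air rats had 7.16, 6.69, 7.05 and 6.59 and the PH3 rats 5.55, 6.00, 6.63 and 5.32. Here Rat351 overlapped the controls, and the fall was -0.999 ± 0.259 (adjusted p = 0.0224). With only the arrays of 1 h in the fit, neither Plau call remained (adjusted p = 0.0728 and 0.106), and leaving out PH3 Rat343 or Rat357, or Air Rat345 or Rat353, also ended the call of 1398287_PM_at.

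F3, the trigger of clotting, was at 9.17, 9.13, 9.09 and 9.39 in the Air rats and at 10.18, 9.90, 9.61 and 9.92 in the PH3 rats. The groups were apart, with Rat351 lowest of the exposed. The rise was 0.71 ± 0.182, or 1.64-fold (adjusted p = 0.0205). The call was lost when Air Rat352 or Rat353, or PH3 Rat357 or Rat343, was left out. Without Rat343 the adjusted p was 0.100, and with the rat as a random block over all tissues it was 0.286.

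Thbd and Vwf were not called at this time. Thbd, the thrombin receptor, ran from 11.21 to 11.48 in Air and from 11.41 to 11.74 in PH3 rats, a difference of 0.20 ± 0.114 (adjusted p = 0.438, 95% interval -0.03 to 0.43). Its other probe sets gave 0.13 (1368901_PM_at) and 0.34 (1368900_PM_at), neither called. The second of these was called against wider sets of Air rats, at 0.63 with those of all times (adjusted p = 0.027) and at 0.73 with those of the other 3 times (adjusted p = 0.0053). Vwf ran from 10.03 to 10.39 in Air and from 9.86 to 10.21 in PH3 rats, a difference of -0.19 ± 0.142 (adjusted p = 0.596, 95% interval -0.48 to 0.10). For both genes the groups overlapped.

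Marker lists of other cells were read on the same lung arrays. Of 12 measured endothelial markers at 1 h, 2 were called higher and 1 lower, with a median effect of -0.06, and their mean level was 9.93 to 10.11 in Air and 10.01 to 10.16 in PH3 rats. Platelet markers were higher in 8 of 9 (1 called, median 0.24), at 5.36 to 6.05 in Air and 5.53 to 6.24 in PH3 rats. Neutrophil markers were higher in 5 of 7 with none called. Red cell markers were higher in 7 of 7 with none called, at 4.77 to 5.49 in Air and 5.42 to 5.81 in PH3 rats.

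Heart muscle markers differed widely between the lung arrays. They were at 7.63, 7.68, 8.68 and 9.07 in the Air rats Rat345, Rat352, Rat353 and Rat354, and at 7.09, 7.93, 9.57 and 10.83 in the PH3 rats Rat343, Rat350, Rat351 and Rat357, with 7 of 7 markers higher and none called. Rat343, whose lung held least of them, had the highest Plat and F3 of the exposed, and Rat357, whose lung held most, had the lowest Plau on both probe sets. Rat351, next below Rat357 in these markers, had the highest Plau of the exposed on both. In Air rats Plau was at 5.27 in heart against 8.21 in lung, and Plat at 8.83 against 9.17. The part of heart muscle in the lung results was not tested. The 3′ minus 5′ difference of the control probe sets, a sign of RNA breakdown, was 0.217 ± 0.098 in Air and 0.181 ± 0.077 in PH3 lungs at 1 h (SD, n = 4). With it as a covariate, all 5 calls at 1 h were made again.

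**Figure D3:**
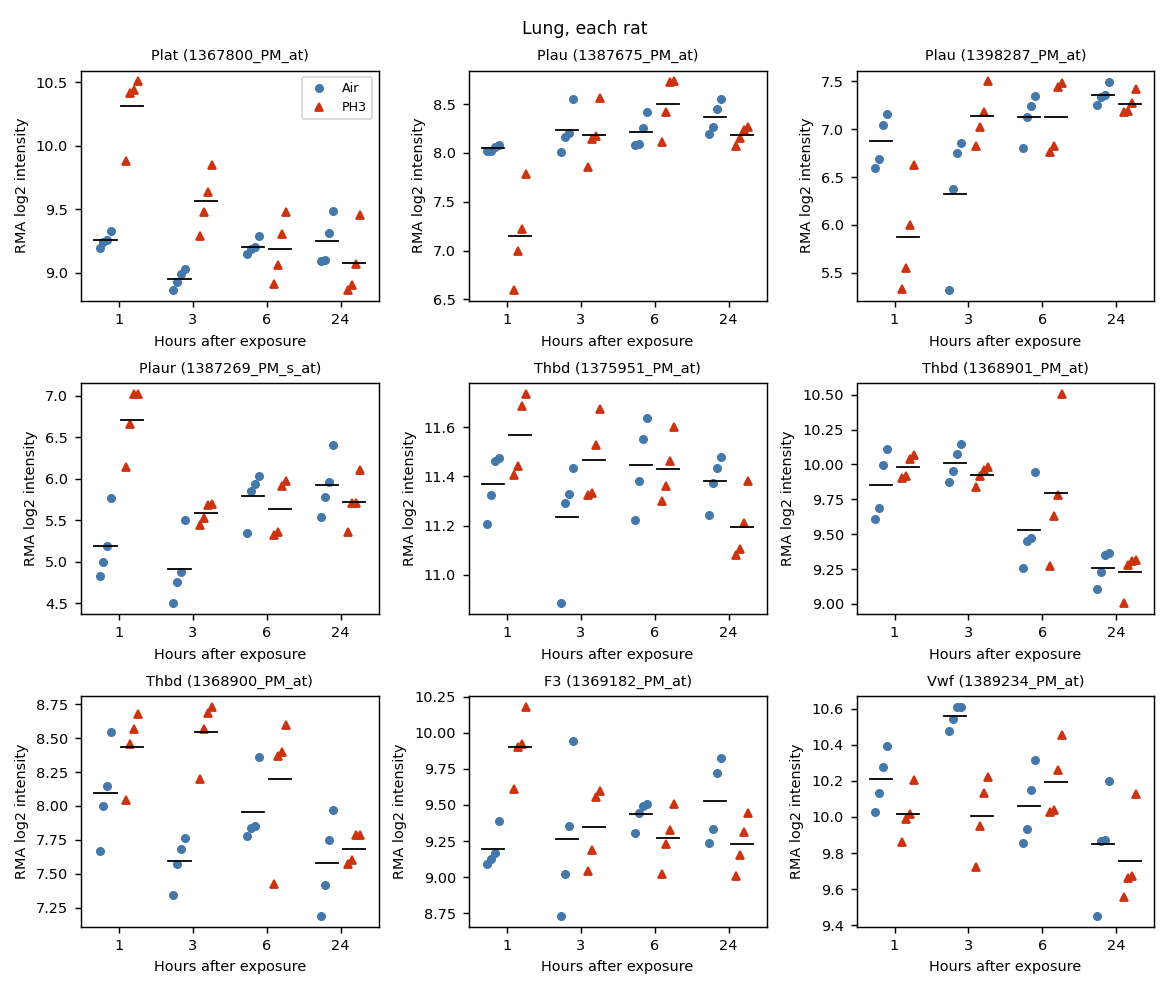
Lung values of every rat for the 9 probe sets. The horizontal axis is hours after exposure, the vertical axis the RMA log2 intensity, blue circles are Air and red triangles PH3 rats, and bars are group means of 4 rats. At 1 h Plat, Plaur and F3 are higher and 1387675_PM_at lower in all PH3 rats than in all Air rats, and by 6 h the groups overlap.

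At 3 h the lung calls involved other members. Plat was still called, the von Willebrand factor gene fell, and single probe sets of Thbd and Plau were higher. The median effect of the 9 probe sets was 0.23, against 0.00 over all probe sets, and 9.89% of all probe sets were called. At this time the arrays of the Air and PH3 rats differed in RNA quality: the 3′ minus 5′ difference was 0.343 to 0.521 in Air and 0.095 to 0.247 in PH3 lungs, with no overlap. With that difference as a covariate none of the 4 was called, while the effects changed to unlike degrees: Thbd 1368900_PM_at from 0.95 to 0.93, Plat from 0.61 to 0.49, Plau 1398287_PM_at from 0.81 to 0.52 and Vwf from -0.55 to -0.15. The SE grew as well, for Thbd from 0.210 to 0.293. With the rat as a random block over all tissues, the Plau call remained (adjusted p = 0.0411).

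Plat was at 8.99, 9.03, 8.86 and 8.93 in the Air rats Rat355, Rat365, Rat370 and Rat400 and at 9.48, 9.64, 9.85 and 9.29 in the PH3 rats Rat359, Rat361, Rat368 and Rat399. The groups did not overlap, and the rise was 0.61 ± 0.139, or 1.53-fold (adjusted p = 0.00674). It was 0.49 with the covariate (adjusted p = 0.411) and 0.40 against the Air rats of all times (adjusted p = 0.104), and with the rat block it was not called (adjusted p = 0.164).

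Vwf was at 10.47, 10.61, 10.61 and 10.54 in the Air rats and at 9.95, 10.13, 9.72 and 10.22 in the PH3 rats. The exposed rats were all lower, by -0.55 ± 0.142, so that the Air level was 1.47-fold higher (adjusted p = 0.0139). The Air rats of 3 h were themselves high: the Air means were 10.21 at 1 h, 10.56 at 3 h, 10.06 at 6 h and 9.85 at 24 h, while the PH3 mean at 3 h was 10.01. Against the Air rats of the other 3 times the difference was -0.03, and with the quality covariate it was -0.15. The call was also lost without PH3 Rat368 (adjusted p = 0.0715) and with the rat block (adjusted p = 0.631).

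Thbd on 1368900_PM_at was at 7.35, 7.57, 7.69 and 7.77 in the Air rats and at 8.20, 8.68, 8.73 and 8.57 in the PH3 rats. The groups were apart, with a rise of 0.95 ± 0.210 (adjusted p = 0.00567). The rise was 0.93 ± 0.293 with the covariate (adjusted p = 0.306) and was not called with the rat block (adjusted p = 0.0691). The brighter Thbd probe sets did not follow, with 0.23 ± 0.114 on 1375951_PM_at (adjusted p = 0.211) and -0.09 ± 0.165 on 1368901_PM_at (adjusted p = 0.802), so the probe sets of this gene disagreed.

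The Plau probe sets disagreed too. On 1398287_PM_at the Air rats had 5.31, 6.38, 6.75 and 6.85 and the PH3 rats 7.50, 7.02, 6.83 and 7.18, a difference of 0.81 ± 0.259 (adjusted p = 0.0444). It was 0.21 against the Air rats of all times (adjusted p = 0.824) and 0.01 against those of the other 3 times (adjusted p = 0.991). The lowest value was that of Air Rat355, the lung array that stood apart, and without it the difference was 0.48. The call was lost when 1 of 9 lung arrays was left out, Air Rat355 or Rat365, any PH3 rat of 3 h, or Rat326, Rat335 or Rat382 of later times (adjusted p up to 0.231). The heart muscle markers of Rat355 were at 10.06, against 6.99 to 7.16 in the other Air rats of that time. On 1387675_PM_at the difference was -0.05 ± 0.175 (adjusted p = 0.903).

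Plaur and F3 were not called at 3 h in the fit of all lung arrays. Plaur was 0.68 higher on average (SE 0.234, adjusted p = 0.0631), at 4.50 to 5.50 in Air and 5.44 to 5.70 in PH3 rats. It was called among the brighter 50% of probe sets (adjusted p = 0.0438), but was 0.13 against the Air rats of all times and -0.05 against those of the other 3 times. F3 differed by 0.09 ± 0.182, and its values overlapped. Neutrophil markers at 3 h were higher in 7 of 7 (3 called), at 4.69 to 5.85 in Air and 5.72 to 6.58 in PH3 lungs. Monocyte and macrophage markers were higher in 8 of 8 (none called), and endothelial markers were called in none of 12. Heart muscle markers were higher in 5 of 7 (none called), at 6.99 to 10.06 in Air and 7.63 to 8.80 in PH3 lungs. Smooth muscle and fibroblast markers were called higher in 2 of 11. The part of these cells in the lung values at 3 h was not tested.

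By 6 and 24 h no probe set was called in lung. The effects ran from -0.17 to 0.29 at 6 h and from -0.30 to 0.10 at 24 h, with no unadjusted p under 0.113. Whether the effect differed between the 4 times was tested directly with limma's F test. In lung it did for Plat (adjusted p = 8.6e-04), Plaur (0.00473) and both Plau probe sets (0.0221 and 0.022), as for 4.82% of all probe sets. F3 missed the threshold (0.0526). With PH3 Rat357 of the 1 h group left out, 2 of the 9 probe sets were called, and 3 with PH3 Rat343 left out. In the other tissues no member passed this F test (smallest unadjusted p = 0.0193, Vwf in brain stem). The background there was 0% in blood and olfactory bulb, 0.0709% in brain stem, 0.116% in heart and 0.49% in kidney.

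Whether the effect differed between tissues was tested by weighing each tissue's effect by its own SE. At 1 h it did for Plat (adjusted p = 1.6e-04), Plaur (2.5e-04), F3 (0.00556) and both Plau probe sets (0.00708 and 0.018), and 3.09% of all probe sets passed. Thbd and Vwf did not pass (adjusted p from 0.605 to 0.918). At 3, 6 and 24 h no member passed (smallest unadjusted p = 0.00138, Thbd 1368900_PM_at at 3 h), with 0.303%, 0.00644% and 0% of all probe sets called. The test treats the tissues of a rat as independent.

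The plot of effects at 1 h shows where the tissues parted. For Plat the lung rise of 1.06 stood against 0.35 in heart, 0.25 in brain stem, 0.21 in olfactory bulb, -0.11 in kidney and -0.58 in blood. For Plau (1387675_PM_at) the lung fall of -0.90 stood against effects of -0.04 in kidney, the tissue with the brightest Plau, and 0.65 in blood. The kidney interval, from -0.22 to 0.14, did not reach the size of the lung fall.

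**Figure D4:**
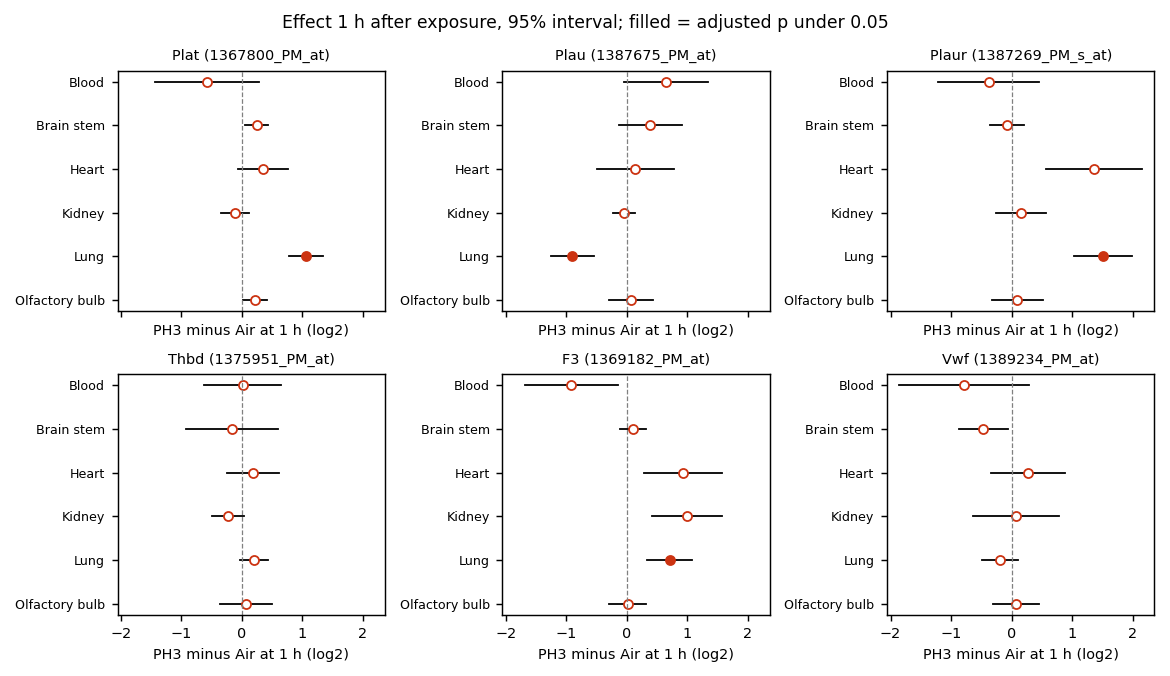
Effect of phosphine at 1 h in each tissue. Points are log2 differences between PH3 and Air rats and lines their 95% intervals from limma's fit of that tissue; filled points have an adjusted p under 0.05. F3 has positive effects in heart (0.93), kidney (0.99) and lung (0.71) and a negative one in blood (-0.91), and Plaur in heart (1.36) is near its lung value (1.52).

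Outside lung no effect was called. The largest were those of Plaur in heart (1.36) and F3 in kidney (0.99) at 1 h, of Plau in blood at 6 h (0.93) and of F3 in heart (0.93) and blood (-0.91) at 1 h. Plaur in heart was at 4.36, 4.17, 4.54 and 4.42 in the Air rats Rat345, Rat352, Rat353 and Rat354 and at 5.72, 6.20, 4.64 and 6.38 in the PH3 rats Rat343, Rat350, Rat351 and Rat357. All exposed rats lay above the controls, Rat351 by little. The difference was 1.36 ± 0.388 (adjusted p = 0.0929, 95% interval 0.57 to 2.16). Without Rat351 it was 1.73 and called (adjusted p = 0.0112), and it was also called without PH3 Rat391 of the 6 h group (adjusted p = 0.00339). Against the Air rats of all times it was 1.49 and called (adjusted p = 0.00231). Without the hearts that stood apart, among them PH3 Rat357, it was 1.15 (adjusted p = 0.292). With the rat block, which gives all tissues 1 spread for a probe set, it was called (adjusted p = 0.0011). The share of all probe sets called with the rat block is not given here for any tissue.

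F3 in kidney was at 7.79, 8.83, 8.92 and 8.80 in the Air rats and at 10.10, 10.21, 8.33 and 9.66 in the PH3 rats. Rat351 lay below 3 of the 4 controls and Air Rat345 below the rest, so the groups overlapped. The difference was 0.99 ± 0.281 (adjusted p = 0.0567, 95% interval 0.42 to 1.57), and it was called without Rat351 at 1.41 (adjusted p = 2.6e-04) and, narrowly, without PH3 Rat399 of the 3 h group (adjusted p = 0.0499). The rat block also called it (adjusted p = 0.0349). In heart F3 was at 7.98, 6.84, 7.27 and 7.74 in the Air rats and at 9.09, 8.62, 8.32 and 7.51 in the PH3 rats. The highest were exposed rats, Rat357 lay among the controls, and the difference was 0.93 ± 0.315 (adjusted p = 0.183). Without the hearts that stood apart it was 1.22 and called (adjusted p = 0.0184), and so it was with the rat block (adjusted p = 0.0281).

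In blood F3 was at 4.96, 5.11, 5.17 and 5.85 in the Air rats and at 4.46, 4.37, 4.15 and 4.45 in the PH3 rats. The groups did not overlap, but the difference of -0.91 ± 0.374 in these dim values was not called (adjusted p = 0.489). It was -0.38 against the Air rats of all times and -0.19 against those of the other 3 times, and with the rat block -0.91 was called (adjusted p = 0.00674). Plau (1387675_PM_at) in blood at 6 h was at 4.76, 5.56, 4.02 and 3.68 in the Air rats Rat377, Rat382, Rat388 and Rat394 and at 5.11, 5.86, 5.37 and 5.41 in the PH3 rats Rat375, Rat381, Rat387 and Rat391. The groups overlapped through Air Rat382, and the difference of 0.93 ± 0.338 was not called (adjusted p = 0.998), while with the rat block it was (adjusted p = 0.00648). In brain stem and olfactory bulb at 1 h the F3 effects were 0.10 and 0.02.

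Thbd and Vwf gave no call outside lung. Heart PH3 Rat357 at 1 h stood above the other exposed rats in both genes, at 9.79 for Thbd against 8.88 to 8.90, and at 9.15 for Vwf against 7.54 to 7.77. The heart of Rat357 was one of those that stood apart, and its 3′ minus 5′ difference was 0.868 against a mean of 0.248 in the Air hearts. Outside lung the Thbd effects over all 3 probe sets and 4 times ran from -0.76 to 0.67, those of Vwf from -0.78 to 0.76, and those of Plat from -0.58 to 0.60.

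Of 50 other genes of clotting and fibrinolysis, 44 were measured, and calls among them were also in lung. At 1 h, 2 were called higher and none lower, with 24 effects above 0 and 20 below and a median of 0.01, beside 4.24% of all probe sets called. Serpind1, heparin cofactor II, an inhibitor of thrombin, rose by 1.5 ± 0.276, from 3.57 to 4.19 in Air to 4.59 to 6.16 in PH3 rats (adjusted p = 0.00108). Procr, the endothelial receptor of protein C, which works beside thrombomodulin, rose by 0.88 ± 0.199, from 6.65 to 7.17 in Air to 7.40 to 8.03 in PH3 rats (adjusted p = 0.00815). Both were also called with the RNA quality covariate.

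At 3 h in lung, 5 of the 44 were called higher and 2 lower, with a median of -0.04, beside 9.89% of all probe sets called. F8, factor VIII, the partner of von Willebrand factor in plasma, fell by 0.73 on the log2 scale (adjusted p = 0.00259). Gas6, a vitamin K dependent ligand of receptor kinases, fell by 0.33 (adjusted p = 0.0228). Serping1, the C1 and contact-system inhibitor, rose by 0.52 (adjusted p = 0.00844), and Cd47 rose by 0.38 (adjusted p = 0.0172). Vkorc1, which recycles vitamin K, rose by 0.31 and S100a10, a plasminogen-binding surface protein, by 0.27 (adjusted p = 0.037 and 0.0377). None of the 7 was called with the RNA quality covariate (adjusted p from 0.431 to 0.922), where S100a10 went to 0.04 and Serping1 to 0.28, F8 to -0.43 and Gas6 to -0.22, while Cd47 (0.31) and Vkorc1 (0.25) changed less.

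Over the 24 contrasts of tissue and time, the genes with the most similar pattern of effects were sought among about 1825 genes with an effect of at least 1 in some contrast. The contrasts share rats across tissues at a time, so the correlations are descriptions. F3 was most like Klf13 (Pearson r = 0.849) and Bcar3 (0.833), and Plaur was most like Abra (0.811), an actin-linked activator of muscle transcription, Nr4a2 (0.761), an early-response nuclear receptor, and Gfpt2 (0.755). Plat was most like Plpp1 (0.742), Myl4 (0.726), an atrial myosin light chain, and Plaur itself (0.708). Plau was most like Pigu (0.677) and Kit (0.648), Vwf like Leng8 (0.837) and Ift27 (0.748), and Thbd like Col1a2 (0.653) and Aoc3 (0.633). Among the 6 genes themselves, Plat and Plau had an r of -0.58 and Plaur and F3 one of 0.53 over the same contrasts.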

How the data were processed

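RNA of 6 rat tissues was amplified from its 3′ end, labelled and hybridised to Affymetrix arrays, per the labels' protocols. The deposited values are log2 intensities per probe set, made by the authors with Partek and RMA per the submitters' processing notes, versions not given in the sources used here. They cover 31139 probe sets, and the 97 control probe sets were left out of the tests. The annotation names 1 gene for 19063 probe sets, several for 572 and none here for 11407.

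Groups came from the labels. Each tissue was fitted on its own with limma 3.58.1 (R 4.3.3), the 8 groups of exposure and time sharing the spread. P-values were two-sided and adjusted by Benjamini-Hochberg over the 31042 probe sets, and they measure the spread between rats. Rat numbers pair tissues of 1 animal, not PH3 with Air. The pairing was checked by correlating deviations between tissues over 200 probe sets, and 162 of 164 arrays matched their own animal best. A kidney array of PH3 at 3 h, the only one under its number (Rat363), could not be tested so and was most like the tissues of Rat368 (r = 0.93). It was kept as labelled. The scripts were tested on simulated data. The text names the members' probe sets, up to 6 called genes of the wider list per contrast, and the 3 genes most alike to a member. Members and lists were chosen with earlier results of these data known. Arrays give no counts, so their number limits the precision. Alternatives changed the samples in the fit, scaling, dim-probe filter, spread estimate, RNA quality covariate, control arrays and rat block.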

Additional observations from a re-analysis of the deposited data

Results flagged for a closer look

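Of 282 values of groups of 4 or 5 rats checked for a single rat far from the others, 12 were picked out, and chance alone picks about 1 in 20. In lung Plat of PH3 Rat351 at 1 h was low, at 9.878 against 10.42 to 10.51 in the other exposed rats. The same rat had the highest kidney Plau of its group, at 11.96 against 11.66 to 11.71. In heart PH3 Rat357 at 1 h was high in Thbd (9.786) and Vwf (9.154), and Plau was high in PH3 Rat391 at 6 h (6.44) and PH3 Rat333 at 24 h (5.981). In kidney F3 of Air Rat345 at 1 h was low, at 7.79 against 8.80 to 8.92, and Plat of PH3 Rat375 at 6 h was high, at 9.061. In brain stem Plau of PH3 Rat343 at 1 h was 5.538 against 4.07 to 4.25 in the others, and Plat of Air Rat400 at 3 h was 8.587. In olfactory bulb Plau of Air Rat507 at 1 h was 5.401, and in blood Plaur of Air Rat377 at 6 h was 3.498.

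The effect of phosphine differed between times in lung for Plat (adjusted p = 0.000861), Plau (0.0221 on 1387675_PM_at and 0.022 on 1398287_PM_at) and Plaur (0.00473), by limma's F test. It differed between tissues at 1 h for Plat (0.000162), Plau (0.00708 and 0.018 on the same probe sets), Plaur (0.000251) and F3 (0.00556).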

How the results depend on the processing

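The 9 lung calls became 5 with the RNA quality covariate and 5 with the rat as a replicate block. That block pairs tissues of 1 rat, but the correlation it found between them was only 0.0168, so the pairing itself carried little weight. The SE of Plat in lung at 1 h was 0.216 in the block fit and 0.139 in the fit of lung alone. The block fit gives all tissues 1 spread for a probe set. In it, blood went from 0 to 4 calls between PH3 and Air and from 0 to 5 for a difference between times. Heart went from 0 to 2 and kidney from 0 to 1. The share of all probe sets called in the block fit is not given here, so these gains cannot be read as particular to the members. Heart also gave 1 call against the Air rats of all times, 2 against those of the other 3 times (a comparison chosen after seeing the data) and 1 without the arrays that stood apart; kidney gave 1 with the brighter 50% of probe sets, with the RNA quality covariate, and against either wider set of Air rats. Leaving out each rat in turn gave 0 to 1 calls in heart and in kidney, and 2 to 5 for a difference between times in lung. Of the effects named above, Plat and Plaur in lung at 1 h passed under all alternatives and without any one rat, at 1.04 to 1.18 and 1.17 to 1.53 over the alternatives. Plat in kidney at 1 h changed sign to 0.065 and 0.123 against the wider sets of Air rats, and F3 in olfactory bulb at 24 h to -0.018 against Air of the other 3 times. Of 503 recomputed counts 18 moved by over 1.5 times, and of 654 recomputed effects 36 lost and 6 gained a call; unless an alternative itself left out samples or probe sets, the cause was not tested. Dim probe sets limit the precision: Plaur lay near the array median in lung Air rats, where its largest rise was read, and below it in heart, kidney, blood and brain stem.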
